A study of Arabidopsis thaliana x Arabidopsis arenosa and Arabidopsis suecica with 6 samples.

Results

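The genes described here are 10 Arabidopsis genes of plant immunity whose alleles or close relatives have been linked to hybrid incompatibility: the coiled-coil receptor genes RPM1 (AT3G07040), RPS2 (AT4G26090), RPP8 (AT5G43470) and ZAR1 (AT3G50950), the TIR receptor genes RPS4 (AT5G45250), RPP4 (AT4G16860) and SNC1 (AT4G16890), the helper receptor genes ADR1 (AT1G33560) and ADR1-L1 (AT4G33300), and ACD6 (AT4G14400). They were chosen by gene code, and no level or difference entered the choice rule, though earlier results of these data were known. Of the 10 listed codes, 9 had a row among 17885 measured genes, and 8 of these had a value in every library; RPM1 was not analysed here. RPS2 had a value in 12 of 16 libraries and was left out of the fitted comparisons.

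The plants were allotetraploids, in which genomes of A. thaliana (T) and A. arenosa (A) are held together. TTTA came from A. thaliana crossed with AlloF8 and TATT from AlloF8 crossed with A. thaliana, and both held 3 T genomes and 1 A genome (class T3A1). AATA came from A. arenosa crossed with AlloF8 and TAAA from AlloF8 crossed with A. arenosa, and both held 1 T genome and 3 A genomes (class T1A3). As is natural A. suecica and AlloF8 is the resynthesized allotetraploid in its F8 generation, each with 2 T and 2 A genomes. The parent order is that in which the labels name them, and the labels do not state which was the mother. Every group was sampled as rosette leaf before bolting, with light for 16 h at 22 °C and dark for 8 h at 20 °C, and the allotetraploids were 6 to 7 weeks old. Each F1 cross had 3 libraries and As and AlloF8 had 2 each. Nothing states that these are separate plants, so all errors and p-values measure the spread between libraries, which may be technical.

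Most of these genes encode NLR proteins, intracellular receptors with a nucleotide-binding domain and leucine-rich repeats. Sensor NLRs detect pathogen effectors, either directly or through a guarded host protein, and switch on cell death and salicylate signalling; those with a TIR domain act through the lipase-like protein EDS1 and the helper NLRs of the ADR1 group. When receptors or their partners from diverged parents meet in a hybrid, immunity can switch on without a pathogen, which in Arabidopsis is known as hybrid necrosis. ACD6 is not an NLR but an ankyrin-repeat membrane protein that promotes salicylate responses, and hyperactive natural alleles of it cause necrosis and small rosettes. The question here was how much of each gene's mRNA came from either genome, and whether the total changed, when the number of T and A genomes changed.

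The values are RPKM, reads scaled to transcript length and library size, given for the T and the A homoeolog (the copy from either parental genome) of each transcript. Normalized values carry no read depth, so the depth is unknown and counting error could not be given. The median gene took 75.0% to 75.3% of its mRNA from the T homoeolog in the T3A1 libraries, 22.9% to 23.9% in the T1A3 libraries, and 49.3% to 50.1% in As and AlloF8. The 5 leaf markers summed to 9895 to 43968 RPKM per library. The flower markers AG, AP3, PI and SEP3 and the root markers PYK10 and CASP1 had no value above 0, and the root marker SHR had 4.28 to 8.41 RPKM. Replicate 2 of each F1 cross stood apart in defence genes: the 7 genes of salicylate output summed to 5772 to 8304 RPKM in replicate 2, against 251 to 3783 RPKM in replicates 1 and 3. The same sum was 2304 RPKM in replicate 1 and 379 RPKM in replicate 2 of As, and 4439 and 173 RPKM in replicates 1 and 2 of AlloF8. As replicate 2 also had 13.9% of its transcripts listed at 0, against 4.80% in As replicate 1.

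Levels differed widely among these genes. ZAR1 had the highest median total (T + A) over the libraries, 57.6 RPKM, above 90.8% of all genes. ADR1-L1 (24.3 RPKM) and ACD6 (23.3 RPKM) followed, then RPP8 (12.8), SNC1 (12.5) and RPP4 (11.5 RPKM), and RPS4 (6.60), ADR1 (4.06) and RPS2 (3.16 RPKM) were the lowest. Neighbours in this order overlapped over the 16 libraries, and RPP8, SNC1 and RPP4 lay closer together than the spread of any of them. ACD6 varied most, 15.1-fold between its lowest and highest library (8.24 and 124 RPKM), and RPP8 varied least among the 8 genes with complete values, 3.32-fold.

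**Figure D1:**
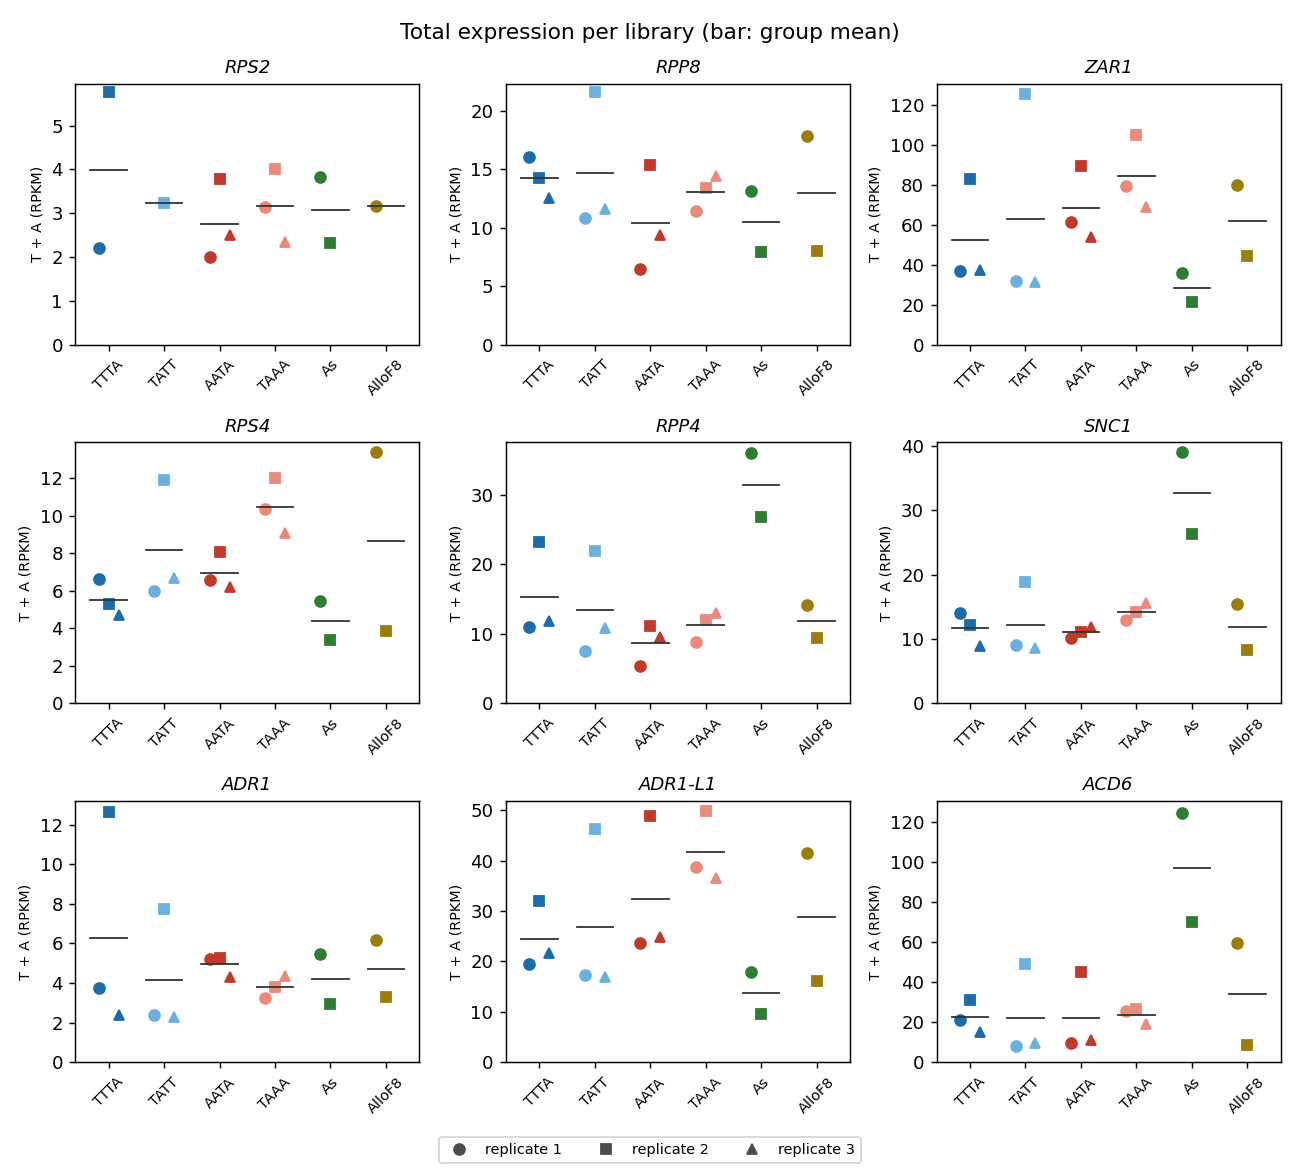
Total expression (RPKM, vertical axes from 0) of the 9 measured genes in every library, with groups along the horizontal axes, marker shapes for replicates and bars for group means. ACD6, RPP4 and SNC1 have their highest values in As, and ZAR1 reaches 125.5 RPKM in replicate 2 of TATT.

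The T homoeolog share of every gene followed the genome copies, but for most of them it sat above that of the median gene. Among the 9 measured genes, ACD6 stood furthest from it in both F1 classes. Its T homoeolog made up 94.7% ± 1.23 of the mRNA in T3A1 and still 78.6% ± 9.23 in T1A3, where T supplied 1 genome of 4 (SD, n = 6 libraries each). The lowest, median and highest ACD6 shares were 92.8%, 94.8% and 96.3% in T3A1 libraries, against 64.7%, 82.2% and 86.4% in T1A3 libraries. T was thus the majority homoeolog of ACD6 in each of the 16 libraries, with 62.9% in an As library as the lowest share.

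Among the coiled-coil receptors, RPP8, a gene of resistance to downy mildew, had T shares of 90.7% ± 1.69 in T3A1 and 44.96% ± 6.83 in T1A3. ZAR1, which detects effectors through pseudokinase partners such as ZED1, lay on the other side of the median gene, with 72.1% ± 1.90 in T3A1 and 19.8% ± 1.11 in T1A3 (SD, n = 6 each). Its T1A3 shares ran from 17.9% to 20.9%, all under those of the median gene. RPS2, which guards the host protein RIN4, had T shares of 87.7% and 81.6% in TTTA and 75.6% in TATT, against 29.4%, 27.7% and 31.1% in AATA and 26.1%, 15.6% and 25.1% in TAAA. Its totals were 2.22, 5.77 and 3.23 RPKM in those T3A1 libraries and 2.01 to 4.01 RPKM in T1A3, so these shares rest on low levels.

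The TIR receptor genes averaged 83.0% to 84.1% T in T3A1. RPS4, which works as a pair with RRS1, had a T share of 84.1% ± 1.98 in T3A1 and 38.3% ± 4.53 in T1A3. RPP4, another downy mildew receptor gene, had 83.7% ± 1.85 in T3A1 and 45.8% ± 5.01 in T1A3. SNC1, whose gain-of-function allele switches on salicylate defence, had 83.0% ± 1.23 in T3A1 and 40.2% ± 8.91 in T1A3 (SD, n = 6 each). Of the helper genes, ADR1 had T shares of 75.8% ± 5.12 in T3A1 and 40.4% ± 7.68 in T1A3, and ADR1-L1 had 79.7% ± 2.50 in T3A1 and 29.9% ± 4.33 in T1A3. Both averaged below the TIR receptor genes in T3A1, and in T1A3 ADR1 lay within their range and ADR1-L1 below it. In each of the 8 genes with complete values the T3A1 shares lay above all T1A3 shares, as a higher T/A ratio was called in 8 of 8 genes and in 99.7% of 13334 genes tested.

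**Figure D2:**
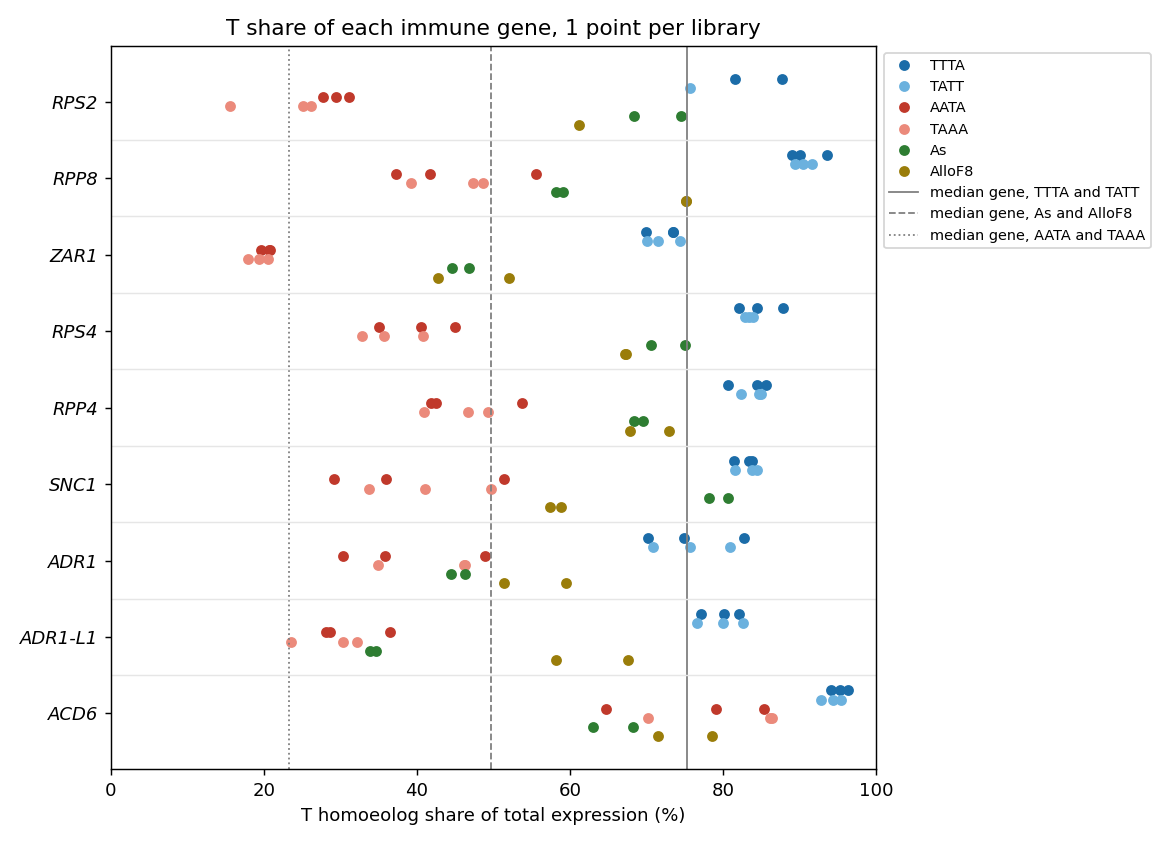
T homoeolog share of total expression (%, horizontal axis) for each of 9 genes, 1 point per library coloured by group, with vertical lines at the share of the median gene in each kind of plant. ACD6 lies to the right of the median gene in every group, and ZAR1 lies to the left of it in the 6 T1A3 libraries.

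Averaged over the 4 crosses, in which T and A genomes are equal in number, the log2 T/A ratio was used as a measure of preference per genome copy. This assumes that reads of both homoeologs are recovered equally and that either genome holds as many copies of the gene, which was not tested. The ratio was above 0 for 7 of the 8 genes and below 0 for ZAR1, where limma called 35.0% of all genes above 0 and 43.1% below. ACD6 had the largest value of the 8, 2.72 ± 0.149 (SE; adjusted p = 1.73e-08), a 6.57-fold T/A ratio with 0.5 RPKM added to each homoeolog. The A homoeolog of ACD6 had 0.550 to 2.27 RPKM in T3A1, and at such levels the added 0.5 RPKM shrinks the ratio. RPP8 followed at 1.30 ± 0.0740, RPP4 at 0.95 ± 0.0546, SNC1 at 0.74 ± 0.0753 and RPS4 at 0.67 ± 0.0577 (SE). ADR1 (0.39) and ADR1-L1 (0.33) had small preferences for T, and ZAR1 had -0.32 ± 0.0546 (adjusted p = 0.000161). All 8 kept their direction and passed in every F1 library left out in turn.

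The T homoeologs were higher in T3A1 for 7 of 8 genes, where 96.3% of 13395 genes were called higher. The exception was ACD6. Its T homoeolog had 7.65, 17.1 and 46.7 RPKM as the lowest, median and highest T3A1 library, against 7.16, 17.5 and 38.4 RPKM in T1A3, and the classes overlapped almost entirely. The difference was 0.16 ± 0.294 (log2, SE), with a 95% interval of -0.49 to 0.82 that does not reach 1.585, the log2 of a 3-fold copy ratio. The T homoeolog of ACD6 therefore fell short of that ratio by 1.42 (adjusted p = 0.00658), and this call was lost without the replicate block (adjusted p = 0.0700).

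Another 4 T homoeologs were called short of the copy ratio, where 25.4% of genes were: RPS4 (log2 change 0.68), ADR1 (0.73), ADR1-L1 (0.82) and SNC1 (0.88), with adjusted p from 0.00283 to 0.0160. Without the replicate block RPS4 and SNC1 passed (adjusted p = 0.00677 and 0.0425), and ADR1 and ADR1-L1 did not (adjusted p = 0.113 and 0.0672). The added 0.5 RPKM shrinks changes where levels are low, and ADR1 averaged 4.70 RPKM over all libraries. For RPP8 (1.26), RPP4 (1.24) and ZAR1 (1.24) a difference from the ratio was not called. The T homoeolog of RPP8 had 9.94, 11.97 and 19.3 RPKM in T3A1 as the lowest, median and highest library, against 3.49, 5.53 and 6.52 RPKM in T1A3, without overlap.

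The A homoeologs were lower in T3A1 for 8 of 8 genes, where 96.9% of 13418 genes were called lower. ADR1-L1 fell by 2.25 ± 0.165 on the log2 scale, the most of the 8: its A homoeolog had 3.00, 3.91 and 10.8 RPKM in T3A1 as the lowest, median and highest library, against 15.0, 27.1 and 35.0 RPKM in T1A3. This went beyond the copy ratio (adjusted p = 0.0118), and RPP4, with a change of -1.098 ± 0.164, stayed short of it (adjusted p = 0.0413). These 2 of 8 compare with 36.3% of all genes called away from the ratio, in either direction, and without the replicate block neither passed (adjusted p = 0.161 for ADR1-L1 and 0.131 for RPP4). The call of RPP4 was also lost in 8 of 12 fits that left out a library. The A homoeolog of RPP4 had 1.34 to 3.36 RPKM in T3A1, where the added 0.5 RPKM shrinks the change in the direction of that call. The A homoeolog of ACD6 fell by 1.58 ± 0.261 with 0.5 RPKM added, close to the ratio. It had 0.550 to 2.27 RPKM in T3A1, against 1.99 to 6.62 RPKM in T1A3, with means of 1.09 and 4.22 RPKM. At such levels the added 0.5 RPKM shrinks the change, so this closeness does not show a change by the copy ratio.

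**Figure D3:**
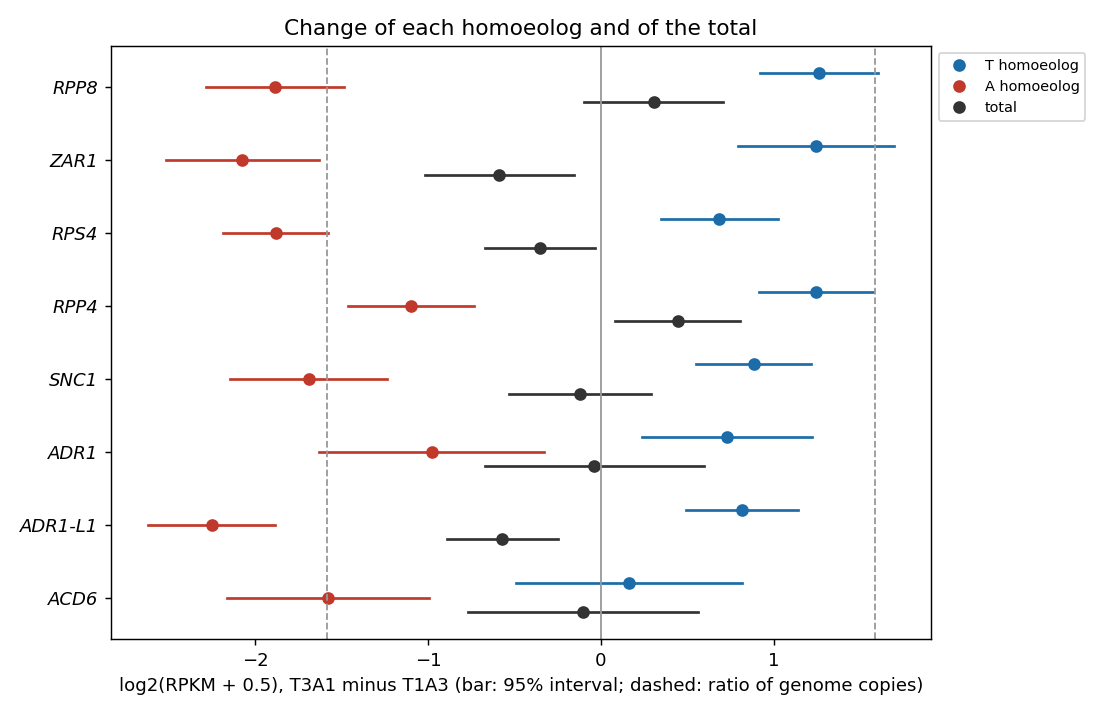
Difference in log2(RPKM + 0.5) between T3A1 and T1A3 (horizontal axis) for the T homoeolog, the A homoeolog and the total of 8 genes, with 95% intervals and dashed lines at plus and minus 1.585, the ratio of genome copies. The T homoeolog of ACD6 lies near 0 while its A homoeolog lies at the dashed line, at levels where the added 0.5 RPKM shrinks changes.

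The totals of the 8 genes differed by at most 0.59 on the log2 scale. In whole leaves, fewer cells of a type and less mRNA per cell cannot be told apart. ZAR1 and ADR1-L1 were lower in T3A1 than in T1A3, and the other 6 did not pass, where 38.4% of 13479 genes were called and 21.5% were called lower. ZAR1 had totals of 36.9, 83.1 and 37.5 RPKM in TTTA and 32.1, 125.5 and 31.3 RPKM in TATT, against 61.4, 89.6 and 53.8 RPKM in AATA and 79.6, 105 and 68.9 RPKM in TAAA. Replicates 1 and 3 of both T3A1 crosses lay below every T1A3 library, while replicate 2 was the highest library of each cross. The fitted difference of ZAR1 was -0.59 ± 0.193 (log2, SE; adjusted p = 0.0381), and leaving out any of 9 of the 12 libraries moved its adjusted p over 0.05 (0.0584 to 0.103 in those fits).

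ADR1-L1 had totals of 19.4, 31.9 and 21.7 RPKM in TTTA and 17.2, 46.3 and 16.9 RPKM in TATT, against 23.6, 49.0 and 24.9 RPKM in AATA and 38.8, 49.8 and 36.5 RPKM in TAAA. Its difference was -0.57 ± 0.142 (SE; adjusted p = 0.0127), and here too replicates 1 and 3 of both T3A1 crosses lay below every T1A3 library. With replicate 2 included, the totals of ZAR1 and ADR1-L1 overlapped between the classes, as did those of all 8 genes. The share of all genes with this pattern in replicates 1 and 3 was not counted. Neither gene passed without the replicate block (adjusted p = 0.262 for ZAR1 and 0.172 for ADR1-L1). Without replicate 2 of every cross, 4 genes were called lower: ZAR1 (-0.92), ADR1-L1 (-0.68), ADR1 (-0.59) and RPS4 (-0.38), where that fit called 27.6% of 12644 genes lower.

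For the remaining genes the intervals of the total bound the change. ACD6 averaged 22.3 ± 15.5 RPKM in T3A1 and 22.7 ± 13.0 RPKM in T1A3 (SD, n = 6 each), with a difference of -0.10 and a 95% interval of -0.77 to 0.56. SNC1 averaged 11.9 ± 4.00 RPKM in T3A1 and 12.6 ± 2.001 RPKM in T1A3, with an interval of -0.53 to 0.29. RPP4 was at 14.4 ± 6.51 RPKM in T3A1 and 9.98 ± 2.70 RPKM in T1A3, and its difference of 0.44 ± 0.161 missed the threshold (adjusted p = 0.0539). RPP8 differed by 0.31 (interval -0.10 to 0.71), RPS4 by -0.35 (-0.67 to -0.03, adjusted p = 0.0776) and ADR1 by -0.04 (-0.67 to 0.60).

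Genes that act with these receptors were counted for the same total, in which 38.4% of all genes were called and 21.5% were called lower. Of 14 measured resistance protein partners, 5 rose and 3 fell in T3A1 relative to T1A3, with a median change of -0.04, beside -0.05 over all genes. The largest changes were those of AT1G58602, annotated as a disease resistance protein (1.22), PBL2, a cytoplasmic kinase sensed by ZAR1 (-0.83), and RPP5, a TIR receptor gene of the cluster that also holds RPP4 and SNC1 (0.83). Of 8 receptor signalling genes, 4 fell and 1 rose (median -0.53): EDS1 fell by 1.04 and SGT1A, a co-chaperone of NLR proteins, by 0.73, and SAG101, a partner of EDS1, rose by 0.70. Of 6 genes of receptor restraint, 3 fell (median -0.54): SRFR1, a repressor of SNC1 and RPS4 responses, by 0.62, the co-repressor gene TPR1 by 0.49 and MOS1 by 0.41. TPR1 and MOS1 are also known to promote SNC1 output, so the name of that list does not describe them.

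The salicylate output genes had a median change of -1.41, and 4 of 7 fell, where 21.5% of all genes were called lower. EDS5, the plastid salicylate transporter gene, fell by 1.75 ± 0.331, PBS3, which conjugates the precursor, by 1.47 ± 0.321 and ICS1 (EDS16), the isochorismate synthase gene, by 1.41 ± 0.308 (log2, SE; adjusted p from 0.00388 to 0.00728). The highest cross mean of each was in TAAA. ICS1 averaged 64.0 RPKM in TAAA, against 15.9 to 23.6 RPKM in the other crosses. EDS5 averaged 80.5 RPKM, against 14.2 to 30.3 RPKM, and PBS3 38.0 RPKM, against 10.2 to 15.8 RPKM. The AATA mean of ICS1 (22.1 RPKM) lay between those of the T3A1 crosses, and those of EDS5 and PBS3 lay above both. How far these falls rest on TAAA was not tested. NPR1, a salicylate receptor gene, fell by 0.45. The pathogenesis-related genes did not pass and differed in sign, with PR1 at -1.45, PR2 at 0.71 and PR5 at 0.91 (adjusted p = 0.0939, 0.203 and 0.0800). Of the leaf markers LHCB2.1 fell by 0.57 and PSBO1 rose by 0.48, and 3 of 5 did not pass. The summed leaf markers overlapped between classes (17092 to 43968 RPKM in T3A1 and 13880 to 31822 RPKM in T1A3), as did the senescence markers SAG13 and SGR1 together (4.82 to 60.4 RPKM in T3A1 and 9.22 to 42.3 RPKM in T1A3), while SAG12 had no value above 0. Whether these differences between leaves had a part in the totals of the receptor genes was not tested.

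Replicate 2 of the F1 crosses had more mRNA than replicates 1 and 3 for 5 of the 8 genes. Of 34 pairs of a gene and a cross with complete values, 30 had a total in replicate 2 above the mean of replicates 1 and 3, as had 51.5% of 51862 such pairs over all genes. Earlier results of these data had shown replicate 2 apart in defence genes, so this count is a description and no independent test. By limma these 5 were higher, where 33.5% of 13479 genes were called and 18.2% were called higher: ACD6 by 1.38 ± 0.313, ZAR1 by 1.06 ± 0.205, ADR1 by 0.90 ± 0.299, ADR1-L1 by 0.86 ± 0.150 and RPP4 by 0.74 ± 0.170 (log2, SE; adjusted p from 0.00378 to 0.0440). ACD6 had 31.1 RPKM in replicate 2 of TTTA against 21.2 and 14.9 RPKM in its replicates 1 and 3, 49.0 against 8.24 and 9.66 RPKM in TATT, 45.05 against 9.52 and 11.1 RPKM in AATA, and 26.3 against 25.4 and 18.9 RPKM in TAAA. It was highest in replicate 2 of each cross, by 1.19 to 5.47 times the mean of the other replicates. SNC1 (0.29), RPS4 (0.35) and RPP8 (0.48) did not pass. ADR1 lost its call in 8 of 12 fits that left out a library, and its difference was 0.56 without TTTA replicate 2.

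**Figure D4:**
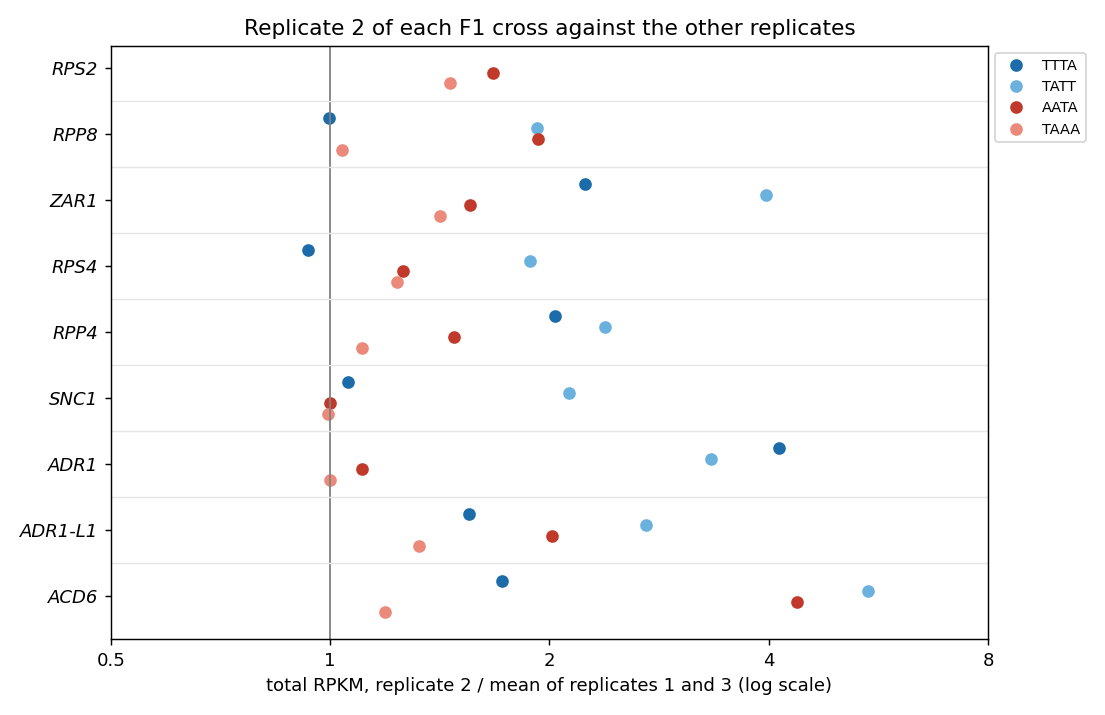
Total RPKM of replicate 2 divided by the mean of replicates 1 and 3 (horizontal axis, log scale) for each gene and F1 cross, with RPS2 shown only in AATA and TAAA. Nearly all points lie at or right of 1, and ADR1 lies at 4.13 and 3.33 in TTTA and TATT but at 1.11 and 1.00 in AATA and TAAA.

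The same libraries differed in other gene groups. In replicate 2, 33.5% of all genes were called and 18.2% were called higher. Of the lists, 9 of 14 partners, 5 of 8 signalling genes and 7 of 7 salicylate output genes were higher. Among these were EDS1 (1.77), ICS1 (1.78), EDS5 (1.57) and PBS3 (1.42), and of 6 genes of receptor restraint 1 was higher. The lists were chosen with earlier results of these libraries known, so their counts describe replicate 2 and are no independent test. All 5 leaf markers were lower, with sums of 13880 to 25338 RPKM in replicate 2 and 25349 to 43968 RPKM in replicates 1 and 3, and the senescence marker SAG13 was higher (1.81). Their part in the values of the receptor genes was not tested. The replicate 2 difference of ADR1 was larger in T3A1 than in T1A3 (log2 difference of the differences 1.65 ± 0.269, adjusted p = 0.0249), where 1.81% of 13346 genes were called. ADR1 had 12.7 RPKM in replicate 2 of TTTA against 3.74 and 2.39 RPKM, 7.75 against 2.37 and 2.27 RPKM in TATT, 5.28 against 5.23 and 4.32 RPKM in AATA, and 3.80 against 3.24 and 4.36 RPKM in TAAA. This comparison was added after these values were seen.

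Cross order and the step from AlloF8 to F1 gave no call among these genes. For AlloF8 named first against second, limma called 0 of 8 genes and 0% of 13479 genes at an adjusted p of 0.05; at an unadjusted p under 0.05 there were 2891 genes, of these 8 only RPS4 (0.52, interval 0.20 to 0.84). RPS4 had totals of 5.98, 11.9 and 6.70 RPKM in TATT and 10.4, 12.01 and 9.11 RPKM in TAAA, against 6.62, 5.27 and 4.70 RPKM in TTTA and 6.57, 8.06 and 6.21 RPKM in AATA. Against AlloF8, 0 of 8 genes were called in T3A1 and 0 of 8 in T1A3 by limma. Of 13091 genes, 0% were called in T3A1, with 1039 at an unadjusted p under 0.05, and 0.0458% in T1A3, with 1060 at an unadjusted p under 0.05, and none of the 8 was among these. Those comparisons share the AlloF8 libraries, which lay far apart: ACD6 had 59.6 and 8.35 RPKM in the 2 AlloF8 libraries, and the 95% interval of its difference from AlloF8 was -2.04 to 1.47 in T3A1 and -1.94 to 1.58 in T1A3.

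Natural A. suecica differed from AlloF8 most in ACD6 and in the neighbours RPP4 and SNC1, which lie in a cluster of TIR receptor genes. ACD6 had 124 and 69.8 RPKM in As, against 59.6 and 8.35 RPKM in AlloF8, and both As values were higher than both AlloF8 values. The difference was 2.02 ± 0.606 (log2, SE; adjusted p = 0.0253), and 1 of 8 genes was called, where 4.14% of 12618 genes were called and 1.23% were called higher. This SE came from the trend over all genes, as did those of RPP4 and SNC1 (0.594 each). It therefore does not measure the distance between the libraries of ACD6 itself, which was wide in AlloF8. With a replicate block the adjusted p was 0.0757, and without AlloF8 replicate 2 the difference was 0.64. Of 4 fits that left out a library, only that without AlloF8 replicate 1 kept the call. RPP4 had 36.0 and 26.8 RPKM in As, against 14.1 and 9.40 RPKM in AlloF8, and SNC1 had 39.0 and 26.2 RPKM, against 15.5 and 8.21 RPKM in AlloF8. In both genes the As libraries lay above the AlloF8 libraries, as they did in 12.7% of 12618 genes, but the differences of 1.39 (interval 0.23 to 2.55) and 1.46 (0.30 to 2.62) missed the threshold (adjusted p = 0.217 and 0.181). The As libraries of ACD6, RPP4 and SNC1 were also above every F1 library, which held for 5.38% of 11514 genes with complete values.

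ZAR1 and ADR1-L1 lay on the low side in As. ZAR1 had 35.9 and 21.1 RPKM in As, against 79.8 and 44.2 RPKM in AlloF8, and ADR1-L1 had 17.98 and 9.51 RPKM, against 41.6 and 16.1 RPKM in AlloF8. The differences of -1.09 and -0.96 were not called (adjusted p = 0.443 and 0.553). RPS4 had 5.45 and 3.38 RPKM in As, against 13.4 and 3.86 RPKM in AlloF8, and RPP8 had 13.1 and 7.89 RPKM, against 17.8 and 8.01 RPKM. Of the listed genes around the receptors, 1 of 5 restraint genes and 2 of 7 salicylate output genes were lower in As, where 4.14% of all genes were called. These were BON1, a restrainer of SNC1 (-2.64), EDS5 (-2.13) and PR5, a salicylate marker (-2.41). They were chosen for naming after their values were seen, as the only calls in these lists. PR5 overlapped between the groups, with 18.8 to 65.6 RPKM in As and 46.1 to 776 RPKM in AlloF8. PR1 had the opposite sign and was not called (0.97).

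The homoeolog ratio of As and AlloF8 was called different in 3 of 8 genes, where 19.6% of 12397 genes were called. The T share of SNC1 was 78.2% and 80.6% in As, against 58.8% and 57.4% in AlloF8, a log2 ratio difference of 1.44 ± 0.207 (adjusted p = 0.00959). ADR1-L1 went the other way, with 34.7% and 33.8% in As, against 58.2% and 67.6% in AlloF8 (-1.59 ± 0.223, adjusted p = 0.00895). RPP8 also had less T in As, 58.2% and 59.1%, against 75.1% in both AlloF8 libraries (-0.98 ± 0.192, adjusted p = 0.0215). With either As library left out, 0 of 8 were called.

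Within As the T homoeolog exceeded the A homoeolog in RPS4, RPP8, RPP4, SNC1 and ACD6, and the A homoeolog exceeded the T homoeolog in ADR1-L1 (log2 ratio -0.87 ± 0.158, adjusted p = 0.00797), where 46.5% of genes were called and 22.1% above 0. With an As library left out, 1 or 2 of these 6 calls were made. Within AlloF8 the T homoeolog exceeded the A homoeolog in 5 genes, RPS4, RPP8, RPP4, ADR1-L1 and ACD6, where 45.5% of genes were called and 20.6% above 0. The majority homoeolog of ADR1-L1 thus differed between As and AlloF8: it had 6.23 and 3.22 RPKM of T beside 11.7 and 6.30 RPKM of A in As, and 24.2 and 10.8 RPKM of T beside 17.4 and 5.21 RPKM of A in AlloF8. SNC1 had 30.5 and 21.1 RPKM of T in As, against 9.11 and 4.72 RPKM in AlloF8, while its A homoeolog had 8.498 and 5.09 RPKM in As, against 6.39 and 3.498 RPKM in AlloF8.

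**Figure D5:**
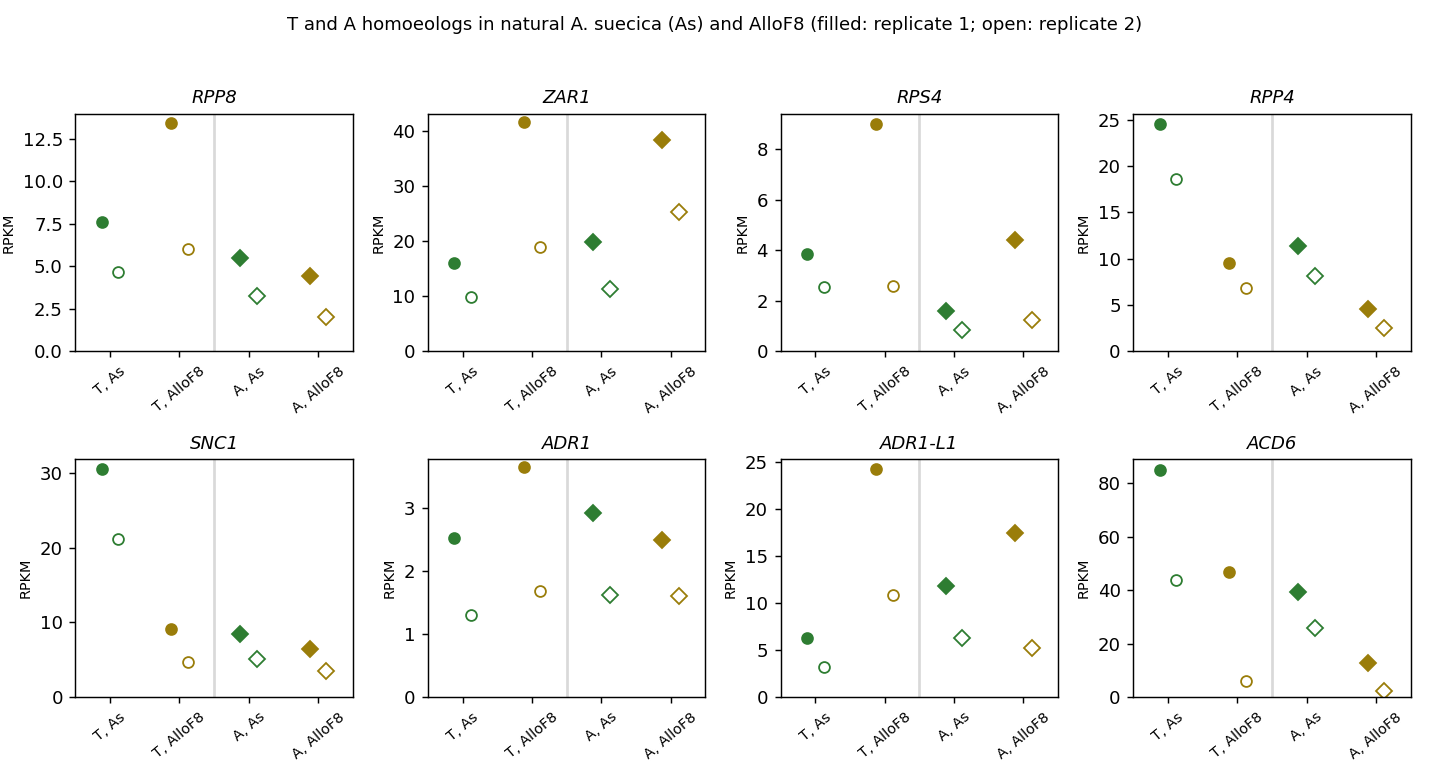
RPKM (vertical axes from 0) of the T homoeolog (circles, left) and the A homoeolog (diamonds, right) of 8 genes in As and AlloF8, filled for replicate 1 and open for replicate 2. Both homoeologs of RPP4, the T homoeolog of SNC1 and the A homoeolog of ACD6 are higher in both As libraries. Both homoeologs of ZAR1 and the T homoeolog of ADR1-L1 are lower in both.

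Likeness between genes over the 16 libraries is given as a description, since libraries of a cross and of a replicate number share their source. Pearson's r of log2 totals was 0.95 between ZAR1 and ADR1-L1 and 0.85 between RPS4 and ADR1-L1. It was 0.86 between SNC1 and ACD6, 0.82 between RPP4 and ACD6 and 0.81 between RPP4 and SNC1, but -0.06 between SNC1 and ZAR1 and 0.19 between ADR1-L1 and ACD6. Among 11514 genes with complete values, the genes most like ZAR1 were ADR1-L2, another helper NLR gene, and CRK10, a receptor kinase gene (r = 0.98 each), and those most like ADR1-L1 were BIR1 and SOBIR1, receptor-like kinase genes of immunity (r = 0.98 each). RPP8 was most like AT5G48620, annotated as a coiled-coil receptor gene (0.96), and GRP-3 (0.94). RPP4 was most like AT5G65480 (0.94) and AT4G16920, annotated as a TIR receptor gene (0.91), and SNC1 was most like ATG8D and HAB2 (0.94 each). For RPS4 these genes were AT3G04930 (0.96) and MKP1 (0.95), for ACD6 AT1G56460 and AT5G49710 (0.94 each), and for ADR1 AT4G10050 (0.89) and bHLH115 (0.85).

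Some of these genes could share reads with relatives or neighbours. In the TAIR10.1 annotation, 60-base windows, the length of the shortest reads, were counted that also occur in another gene's transcript on either strand. RPP4 shared 22.6% of its windows with 8 genes and SNC1 14.5% with 8 genes, all with codes from AT4G16857 to AT4G16960, and 2 annotated genes lie between RPP4 and SNC1. RPP4 and SNC1 also share windows with each other, 4.48% of those of RPP4, and RPP4 shares 7.03% with AT4G16920. RPP8 shared 11.5%, nearly all with AT5G48620. How the authors placed such reads is not given in the sources used here, so values of RPP4, SNC1 and RPP8 are uncertain to that extent. Transcripts annotated on the opposite strand covered 100% of the windows of RPS2, 10.9% of ADR1-L1 and 4.68% of ZAR1, and without a statement on strand their reads cannot be told apart. RPS4, ADR1 and ACD6 shared no window. These are A. thaliana sequences; the A homoeologs were not examined for copies.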

How the data were processed

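The authors deposited RPKM values (reads scaled to transcript length and to mapped reads of the library) for either homoeolog (T, A) of a transcript, with columns per replicate. Libraries were poly(A) RNA made with an Illumina mRNA-seq kit and read as 60 to 83 bases on a Genome Analyzer, per the labels. The build was TAIR 9, per the submitters' processing notes; for the aligner and the assignment to homoeologs the sources used here give nothing. Pairs of T and A both at 0 (4.80% to 13.9% of a library) were treated as missing, since no nonzero total was under 2.00 RPKM. Each gene was its transcript with the highest mean; other transcripts of the same gene gave 0.876 to 1.02 times its total. Symbols came from the TAIR10.1 annotation.

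Differences were fitted by limma 3.58.1, run under R 4.3.3 (two-sided, eBayes, trend), on log2(RPKM + 0.5) for genes averaging 1 RPKM or more, with 2 values per group. P-values were Benjamini-Hochberg adjusted over all genes tested, with a threshold of 0.05. F1 comparisons used 12 libraries, cross means and replicate number as a block. The numbers come from the column headers and were taken as pairs because same-numbered libraries of different crosses deviated together from their cross means. Their correlation was 0.147 to 0.690 (median 0.473) in 18 pairs over 12174 genes. In 36 pairs with different numbers it was -0.639 to 0.526 (median -0.351), which overlaps that range. Deviations from a cross mean cancel within the cross, so positive values in same-numbered pairs push the others down. The second set is therefore no separate evidence for the pairing. Comparisons with AlloF8 had no block. For totals of As against AlloF8, eBayes took the error from the trend over all genes, not from each gene's own libraries. The fits were tested on simulated data. Tables were handled with Python 3.11.15 and pandas 2.3.3. The 10 genes and the gene lists were chosen with earlier results of these data known. Named from each list were the called genes with the 3 largest changes in total between T3A1 and T1A3, and for each gene with complete values the 2 genes of highest Pearson r.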

Additional observations from a re-analysis of the deposited data

Results flagged for a closer look

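In the 6 T3A1 libraries, the total of RPS4 in TATT replicate 2 (11.9 RPKM) lay far from the others, which ran from 4.70 to 6.70 RPKM. It was 1 of 34 sets of 6 libraries (totals and T shares of each gene in each class) in which the most extreme library was looked for, and chance alone marks about 1 in 20 such sets. RPS4 was called lower in T3A1 when that library was left out (-0.46, adjusted p = 0.0162), against -0.35 and adjusted p = 0.0776 with it. Leaving out the highest T3A1 library lowers the T3A1 mean by itself, so that call is no independent support. RPS4 stayed uncalled in 23 of 28 settings.

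The replicate 2 difference of ADR1 was larger in T3A1 than in T1A3 by 1.65 (log2, limma, adjusted p = 0.0249). Replicate 2 was above replicates 1 and 3 in both T3A1 crosses and near their mean in both T1A3 crosses. It missed the threshold with pairs at 0 kept (adjusted p = 0.0517), and the count of called genes fell to 0 without TTTA replicate 1, TATT replicate 1 or 3, any AATA library, or TAAA replicate 2 or 3.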

How the results depend on the processing

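Read depth is unknown, replicates may be technical, and 2 libraries each for As and AlloF8 leave wide intervals. Over 2852 recomputed values of single genes, 2689 kept their direction and side of the threshold, 124 lost and 39 gained a call, and none reversed. Counts of called genes among the 8 are given next where they moved by over 1.5 times.

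Total, T3A1 against T1A3 (2 called): 1 with pairs at 0 kept, 0 without the replicate block, on cross means, without replicate 1 or replicate 3 of every cross or without TTTA, 4 without replicate 2 of every cross, 1 without TAAA, and 1 to 3 with single libraries left out. T homoeolog against the copy ratio (5): 3 at a minimum of 5 RPKM (6 genes tested), 2 without the replicate block and without TAAA, 1 on cross means and without replicate 1 or 3 of every cross, and 5 to 7 with single libraries left out. A homoeolog against the copy ratio (2): 1 at 5 RPKM (2 genes tested) and without replicate 3 of every cross, 0 without the replicate block, on cross means, without replicate 1 of every cross, without TTTA or without TAAA, and 1 to 3 with single libraries left out. At 5 RPKM the A homoeolog, the T/A change and the T/A preference (8 each) had 2 of 2 genes tested. Replicate 2 (5): 2 without replicate 1 or 3 of every cross, 3 without TATT, and 4 to 6 with single libraries left out. As against AlloF8 (1): 0 with library medians equalized or with the replicate block, and 0 to 1 with single libraries left out; for the ratio (3), 0 to 5, within AlloF8 (5), 5 to 6, and within As (6), 1 to 7. Class by replicate 2 for the total (1): 0 with pairs at 0 kept, 0 at 5 RPKM, where ADR1 was below the minimum and not tested, and 0 to 1 with single libraries left out. Leaving out replicate 2 of every cross from the comparisons with AlloF8, and class by replicate 2, were added after seeing the data. The replicate block changed no other count by over 1.5 times.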
